A study of Mus musculus with 7 samples.

Results

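The genes described here mark the early steps of the oligodendrocyte lineage. They are 10 gene rows matched by symbol among the 54532 genes measured. Of these, 6 mark oligodendrocyte precursors (Pdgfra, Cspg4, Vcan, Ptprz1, Lhfpl3 and Sox6), 3 mark the committed, premyelinating step (Gpr17, Bcas1 and Enpp6), and Tnr encodes an extracellular matrix protein of the same lineage. They were read in RNA-seq of mouse motor cortex from 3 wild-type (WT) and 4 conditional knockout (cKO) libraries. All 7 came from mice given a virus named GA100 in the left and right lateral ventricles on postnatal day 0, and tissue was taken 3 months later, after behavioural tests. The series title names TIA1, a stress granule protein, and a C9orf72 poly-GA model. The labels do not name the deleted gene or its exons, the Cre driver, the cells that recombine, the strain, or whether each library is 1 animal. No uninjected mice were analysed here, so all comparisons are between genotypes under the same virus.

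In adult cortex, precursors persist as slowly dividing cells that sense platelet-derived growth factor through the receptor PDGFRA. A precursor that leaves the cycle loses PDGFRA and the proteoglycan NG2 and passes through a short premyelinating step. It then expresses GPR17, BCAS1 and ENPP6 before it makes compact myelin. Transcripts of this middle step are therefore used as a readout of newly forming oligodendrocytes, but bulk counts do not show that mature cells lack them. Several of the 10 genes are also expressed elsewhere: Cspg4 in pericytes, Pdgfra in fibroblasts, Ptprz1 in astrocytes, and Sox6 and Tnr in some cortical interneurons. In bulk tissue, fewer cells of a type and less RNA per cell cannot be told apart.

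Depth was alike, with 15213977 to 16463721 gene counts per library in WT and 15181390 to 16403202 in cKO. Tia1 had 60.6, 95.8 and 68.9 CPM (counts relative to the TMM-scaled library total) in WT replicates 1 to 3 and 72.7 to 81.9 CPM in cKO. Its log2 fold change was 0.07 ± 0.13 (SE), with an edgeR adjusted p of 0.914. If Tia1 is the deleted gene, a count over the whole gene does not check a deletion of some exons, so directions are for the libraries labelled cKO. WT replicate 1 and cKO replicate 1 carried Xist (15217 and 19151 counts) and no Ddx3y counts, the reverse of the other 5 libraries. Summed excitatory neuron markers, among them Slc17a7 and Camk2a, held 4376 to 6219 CPM. Some libraries stood apart. Summed meningeal fibroblast markers held 118 CPM in WT replicate 1 and 129 CPM in cKO replicate 3, against 47.0 to 71.8 CPM in the other 5. Summed neuroblast markers held 229 CPM in cKO replicate 3 and 105 to 122 CPM elsewhere. Summed choroid plexus markers held 174 CPM in cKO replicate 4 and at most 22.9 CPM elsewhere.

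The start sites of 3 genes are shown because their patterns across the libraries part from each other: Pdgfra was even, Enpp6 had the largest difference between genotypes, and Lhfpl3 stood out in 1 library. Each sequence is the 250 bases before the transcription start in RefSeq (GRCm38.p6, the mm10 build), read 5′ to 3′ on the gene's strand. Pdgfra lies at chr5:75152001-75152250 on the forward strand, Enpp6 at chr8:46986637-46986886 on the forward strand, and Lhfpl3 at chr5:22745804-22746053 on the forward strand. Capitals mark matches to the E-box CAGCTG or to the SOX core ACAAAG, searched on both strands.

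Pdgfra: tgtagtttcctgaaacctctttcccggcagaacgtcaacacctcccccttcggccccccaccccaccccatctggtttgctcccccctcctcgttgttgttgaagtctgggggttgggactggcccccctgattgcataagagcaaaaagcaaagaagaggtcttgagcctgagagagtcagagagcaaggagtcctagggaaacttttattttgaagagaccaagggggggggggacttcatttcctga

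Enpp6: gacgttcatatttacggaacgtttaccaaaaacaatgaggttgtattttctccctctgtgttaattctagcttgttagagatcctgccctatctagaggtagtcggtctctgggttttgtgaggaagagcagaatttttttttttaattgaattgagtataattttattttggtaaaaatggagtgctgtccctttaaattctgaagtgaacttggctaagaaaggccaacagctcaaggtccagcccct

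Lhfpl3: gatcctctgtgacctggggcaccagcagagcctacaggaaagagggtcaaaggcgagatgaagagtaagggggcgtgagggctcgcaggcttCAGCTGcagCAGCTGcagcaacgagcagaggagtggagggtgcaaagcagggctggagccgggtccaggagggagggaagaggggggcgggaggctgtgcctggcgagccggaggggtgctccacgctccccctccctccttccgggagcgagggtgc

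The Enpp6 window was 38.4% G and C, below the 10th percentile (38.8%) of the 32851 RefSeq windows of the same length, whose median was 52.4%. The Pdgfra window was 54.4% and the Lhfpl3 window 67.2% G and C. The E-box matched in 13.0% and the SOX core in 16.5% of all windows. Lhfpl3 held 2 E-box matches, which begin 158 and 149 bases before the start, and neither Pdgfra nor Enpp6 held either motif. The windows and motifs were chosen after the values were seen, and a match is a description of the letters, not a binding site. Windows of 8 of the 10 genes were searched, with 13 starts in all and none for Gpr17 or Bcas1. Of these 8, Sox6 and Tnr held the SOX core, and Lhfpl3 and Sox6 the E-box. Sox6 had several starts, so a match in any of them is not comparable with a share per window.

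The 3 premyelinating genes had higher means in cKO, carried by 3 of its 4 libraries. The 6 precursor genes differed among themselves: Pdgfra and Sox6 lay near 0 (0.01 each in log2 fold change, cKO minus WT), Vcan and Ptprz1 at 0.10 and 0.15, Cspg4 at -0.32, and Lhfpl3 at 0.36 through 1 library. None of the 10 passed the test across all genes. The edgeR quasi-likelihood test at an adjusted p under 0.05 called 0 of 10, as it called 0 of 16308 genes tested (0%). At an unadjusted p under 0.05 it listed 3 of the 10 (Enpp6, Gpr17 and Cspg4), where 7.14% of all genes tested were listed. Groups of libraries did not overlap for 1 of the 10 (Ptprz1), where 7.38% of all genes tested had no overlap. The log2 fold change was above 0 for 8 of the 10, with a median of 0.13. Over all genes tested 51.8% were above 0, with a median of 0.01. All 10 genes passed the filter on low counts. Library by library, the lowest count of any of them was 92 (Enpp6 in WT replicate 1).

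**Figure D1:**
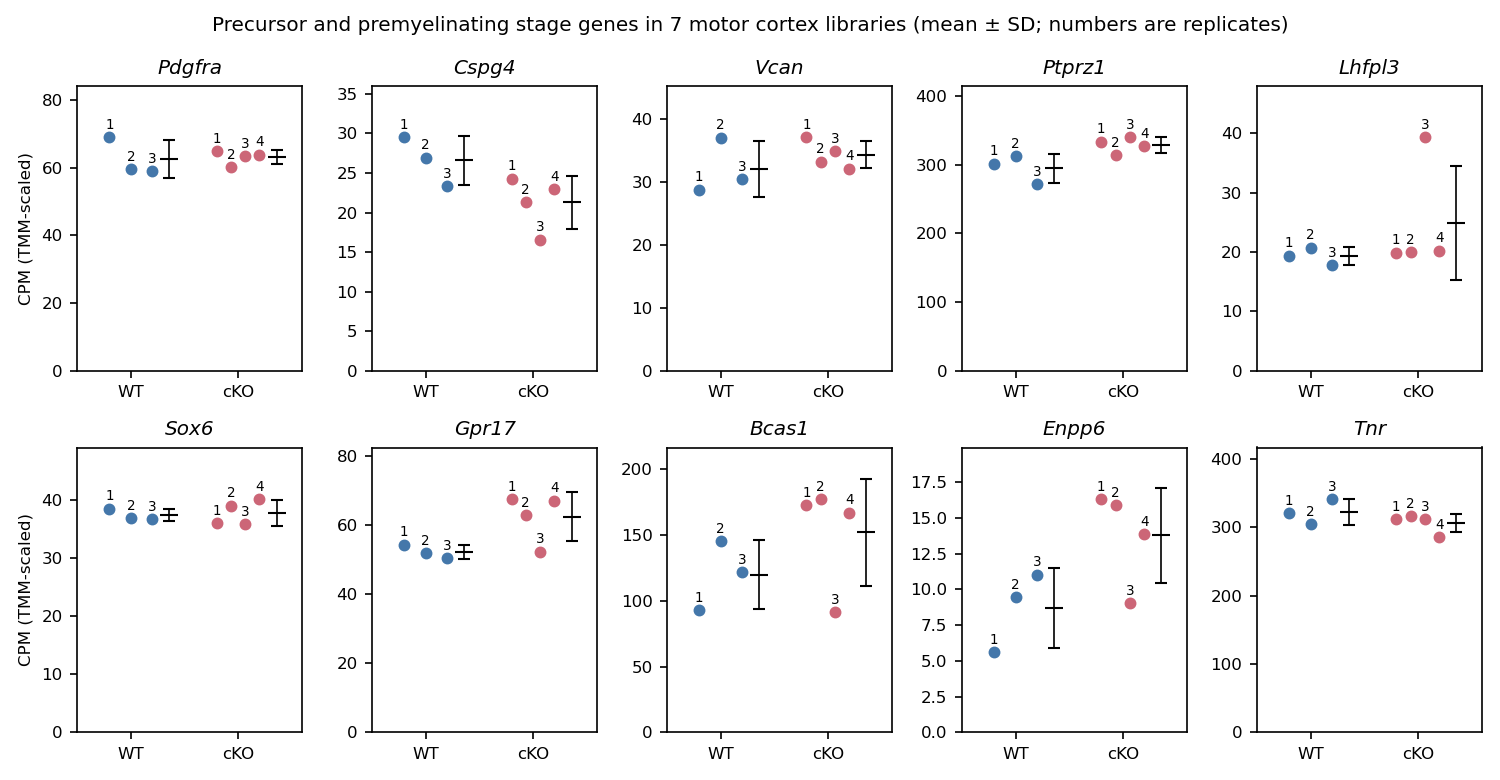
CPM on TMM-scaled library sizes (y axis, linear from 0) of each gene in WT (blue) and cKO (red); points are libraries with their replicate number, and the bar beside them is the mean ± SD. Gpr17, Bcas1 and Enpp6 sit higher in cKO replicates 1, 2 and 4 than in any WT library, with cKO replicate 3 within or below the WT range, and Lhfpl3 stands at 39.3 CPM in cKO replicate 3 alone.

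On the authors' FPKM scale, over 7 libraries, mean levels were 36.5 ± 9.51 (SD) for Bcas1, 24.2 ± 1.38 for Tnr, 21.96 ± 1.57 for Ptprz1 and 11.2 ± 1.38 for Gpr17. Lower levels were 6.97 ± 2.35 for Lhfpl3, 6.25 ± 0.367 for Pdgfra, 2.53 ± 0.109 for Sox6, 2.30 ± 0.213 for Vcan, 1.97 ± 0.345 for Cspg4 and 1.80 ± 0.602 for Enpp6. Ptprz1 lay above Gpr17, and Pdgfra above Sox6, in all 7 libraries. Lhfpl3 lay above Pdgfra in only 3 of 7, and Cspg4 above Enpp6 in 3 of 7, so these neighbours have no fixed order. The spread over libraries also set the genes apart. It was 4.31% of the mean for Sox6, 5.71% for Tnr and 5.87% for Pdgfra, and 26.1% for Bcas1, 33.5% for Enpp6 and 33.7% for Lhfpl3.

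Pdgfra (ENSMUSG00000029231, chromosome 5, 75152292 to 75198215, forward strand) encodes the growth factor receptor that keeps precursors dividing and alive. It had 69.0, 59.6 and 59.0 CPM in WT replicates 1 to 3 and 65.0, 60.1, 63.5 and 63.9 CPM in cKO replicates 1 to 4. All 4 cKO values lay inside the WT range. Between genotypes the log2 fold change was 0.01 ± 0.08 (SE). The 95% interval spanned -0.17 to 0.19 (edgeR adjusted p = 0.980). This interval holds changes of either sign up to about that size, so it bounds a difference without showing equality.

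Sox6 (ENSMUSG00000051910, chromosome 7, 115470872 to 116038796, reverse strand) encodes a transcription factor that holds precursors undifferentiated. It was the least variable of the 10, with 38.6, 36.9 and 36.8 CPM in WT and 35.99, 39.0, 35.9 and 40.2 CPM in cKO. Its log2 fold change was 0.01 ± 0.08 (SE), with a 95% interval from -0.17 to 0.20. Vcan (ENSMUSG00000021614, chromosome 13, 89655312 to 89742509, reverse strand) encodes versican, a chondroitin sulfate proteoglycan of the matrix. Vcan had 28.8, 37.1 and 30.4 CPM in WT and 37.1, 33.3, 34.97 and 32.1 CPM in cKO, and the groups overlapped over most of their range. For Vcan the log2 fold change was 0.10 ± 0.11 (SE). The signs of Pdgfra and Sox6 turned with upper-quartile scaling, as their values lie near 0.

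Ptprz1 (ENSMUSG00000068748, chromosome 6, 22875502 to 23052916, forward strand) encodes a receptor tyrosine phosphatase that also exists as the secreted proteoglycan phosphacan. It had 302, 312 and 271 CPM in WT and 334, 314, 340 and 327 CPM in cKO. Each cKO library lay above each WT library, by a narrow margin between cKO replicate 2 (313.5 CPM) and WT replicate 2 (312.0 CPM). The difference was 0.15 ± 0.08 (SE) in log2, with an edgeR adjusted p of 0.705. The exact two-sided permutation p of log2 CPM over 35 splits was 0.0571, the smallest this design allows. Ptprz1 is also an astrocyte gene, and the 10 astrocyte markers had 6 positive and 4 negative log2 fold changes, with a median of 0.01, or 4 positive and 6 negative with upper-quartile scaling. In the main fit these markers ran from -0.15 (Fgfr3) to 0.29 (Aqp4). Their part in the Ptprz1 values was not tested.

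Cspg4 (ENSMUSG00000032911, chromosome 9, 56865033 to 56899870, forward strand) encodes NG2, the surface proteoglycan by which precursors are recognised. It had 29.5, 26.9 and 23.3 CPM in WT and 24.3, 21.3, 16.6 and 23.0 CPM in cKO. WT replicate 3 lay below cKO replicate 1, so the groups overlapped by those libraries. Its log2 fold change was -0.32 ± 0.14 (SE), with an unadjusted p of 0.0372, an edgeR adjusted p of 0.694 and an exact permutation p of 0.114. Without WT replicate 1 and cKO replicate 3 it was -0.14. Relative to Pdgfra in the same library, a ratio chosen after the values were seen and one that does not depend on scaling, Cspg4 FPKM was 0.359, 0.380 and 0.332 in WT and 0.314, 0.297, 0.219 and 0.302 in cKO. These ratios did not overlap between genotypes. Every other ratio formed did overlap, and no share over ratios of other genes was computed.

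Pericytes also carry NG2, and their receptor gene Pdgfrb, singled out after its values were seen, was also lower. Pdgfrb had 32.6, 27.3 and 24.4 CPM in WT and 24.0, 23.4, 21.2 and 22.8 CPM in cKO, with no overlap. This is a log2 difference of -0.30 ± 0.11 (SE), with an edgeR unadjusted p of 0.0213. Pericyte and vascular muscle markers, Pdgfrb included, did not share 1 direction: 3 of 9 tested were positive and 6 negative, with a median of -0.09. Without WT replicate 1, 5 were positive and 4 negative, with a median of 0.03 and none lower at an unadjusted p under 0.05, Pdgfrb included. Of all genes tested in that fit, 3.34% were at that p in either direction. The most abundant, Rgs5 and Vtn, had 0.25 ± 0.09 and -0.01 ± 0.12. Their summed level was 256 to 314 CPM in WT and 269 to 316 CPM in cKO. Their part in the Cspg4 values was not tested.

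Lhfpl3 (ENSMUSG00000106379, chromosome 5, 22746059 to 23275597, forward strand) encodes a tetraspan membrane protein. It had 19.4, 20.7 and 17.8 CPM in WT and 19.9, 20.02, 39.3 and 20.2 CPM in cKO. A single library, cKO replicate 3, lay far above the other 6, which spanned 17.8 to 20.7 CPM. The log2 fold change of 0.36 ± 0.22 (SE) rested on it and was 0.05 without that library. Of 6 genes that overlap Lhfpl3 in the deposited annotation, the largest count in any library was 23, against 269 to 581 counts for Lhfpl3.

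In cKO replicate 3 the neuroblast markers were also high. Dcx, a microtubule protein of migrating young neurons, had 74.9 CPM there and 26.4 to 36.6 CPM in the other 6 libraries, and Dlx1 had 45.8 CPM there and 26.9 to 34.2 CPM elsewhere. Sp8 (a neuroblast marker) and Fabp7 (from the precursor list), singled out after their values were seen, had 22.9 and 31.0 CPM there, against at most 3.64 and 10.3 CPM elsewhere. All 9 neuroblast markers were measured and none was at 0 across the libraries. Without cKO replicate 3 their median log2 fold change was 0.01, against 0.32 with it. The part of these cells in the Lhfpl3 value was not tested.

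Gpr17 (ENSMUSG00000052229, chromosome 18, 31942997 to 31949636, reverse strand) encodes a G protein-coupled receptor present for a short time in committed cells, where it restrains maturation. It had 54.5, 52.1 and 50.5 CPM in WT and 67.7, 63.0, 52.4 and 67.2 CPM in cKO. cKO replicates 1, 2 and 4 lay above all WT libraries and cKO replicate 3 within their range. Its log2 fold change was 0.26 ± 0.10 (SE; 95% interval 0.04 to 0.47), with an unadjusted p of 0.0217, an edgeR adjusted p of 0.694 and an exact permutation p of 0.114. Without cKO replicate 3 it was 0.33, with an edgeR adjusted p of 0.178. Gpr17 lies wholly within Lims2 on the opposite strand, which had 127 to 231 counts against 765 to 1123 for Gpr17. The library protocol describes no step that marks strand, so reads of the overlap cannot be assigned.

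Bcas1 (ENSMUSG00000013523, chromosome 2, 170346991 to 170427845, reverse strand) encodes a protein of early myelinating cells. It had 93.0, 146 and 122 CPM in WT and 173, 178, 91.6 and 167 CPM in cKO. The cKO libraries split into 3 above every WT library and replicate 3 below every WT library. Its log2 fold change was 0.34 ± 0.20 (SE; 95% interval -0.10 to 0.79; edgeR adjusted p = 0.738). It was 0.52 without cKO replicate 3 and 0.19 without WT replicate 1, so the size depends on those libraries. From lowest to highest, the libraries had the same order in Bcas1 as in Mbp, a mature oligodendrocyte gene. Mbp, picked here after its values were seen, had 1591, 2205 and 2031 CPM in WT and 2727, 2993, 1391 and 2659 CPM in cKO. The part of mature cells in the Bcas1 values was not tested.

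Enpp6 (ENSMUSG00000038173, chromosome 8, 46986887 to 47096762, forward strand) encodes a choline phosphodiesterase that marks newly formed oligodendrocytes. It had 5.63, 9.45 and 11.03 CPM in WT and 16.3, 15.9, 9.06 and 13.8 CPM in cKO. Again cKO replicates 1, 2 and 4 lay above all WT libraries, and replicate 3 lay within the WT range. The log2 fold change of 0.67 ± 0.24 (SE), a ratio of 1.59, was the largest of the 10 genes in the edgeR fit. Its 95% interval ran from 0.14 to 1.19, with an unadjusted p of 0.0165, an edgeR adjusted p of 0.691 and an exact permutation p of 0.171. With no filter on low counts the SE of Enpp6 was 0.16, at a log2 fold change of 0.66. Enpp6 was then the only one of the 10 genes that edgeR called (adjusted p of 0.0116), in a fit that called 198 of 31277 genes. Over the other alternatives that gave it, its adjusted p ran from 0.178 to 1.00. Without WT replicate 1 the log2 fold change was 0.43.

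**Figure D2:**
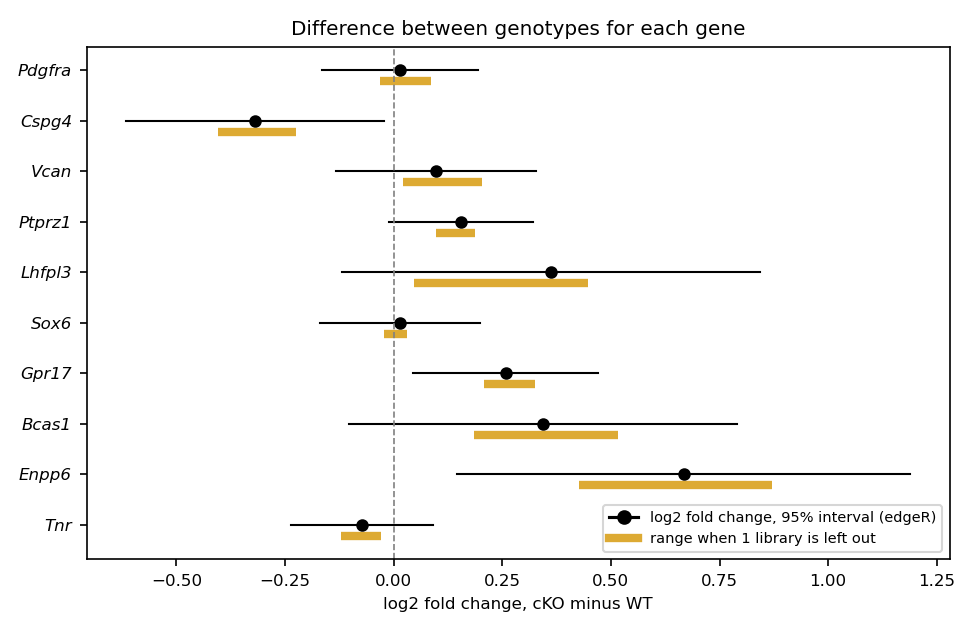
Log2 fold change of each gene, cKO minus WT (x axis), with the edgeR 95% interval in black; the yellow bar spans the values when any 1 of the 7 libraries is left out. The intervals of Cspg4, Gpr17 and Enpp6 leave out 0, and Lhfpl3 reaches 0.05 without cKO replicate 3.

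The mean over Gpr17, Bcas1 and Enpp6 of log2 CPM, centred on each gene's mean over 7 libraries, was -0.52, -0.08 and -0.11 in WT and 0.39, 0.35, -0.32 and 0.29 in cKO. The same mean over the 6 precursor genes stayed between -0.12 and 0.08 in all 7 libraries, and without Lhfpl3 between -0.09 and 0.06. Mature oligodendrocyte genes were low in the same 2 libraries, with means of -0.62 in WT replicate 1, -0.42 in cKO replicate 3, -0.07 to -0.01 in WT replicates 2 and 3 and 0.24 to 0.51 in cKO replicates 1, 2 and 4. The libraries lowest in both were those highest in meningeal fibroblast markers, at 0.76 in WT replicate 1 and 0.78 in cKO replicate 3, against -0.56 to 0.09 in the other 5. Between genotypes, 5 of the 10 fibroblast markers were positive and 5 negative, with a median of 0.02, and this split rested on both libraries. Without WT replicate 1 all 10 were positive (median 0.44), without cKO replicate 3 it was 2 positive and 8 negative (median -0.40), and without both 8 positive and 2 negative (median 0.10). The part of fibroblasts, or of mature oligodendrocytes, in the premyelinating values was not tested.

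**Figure D3:**
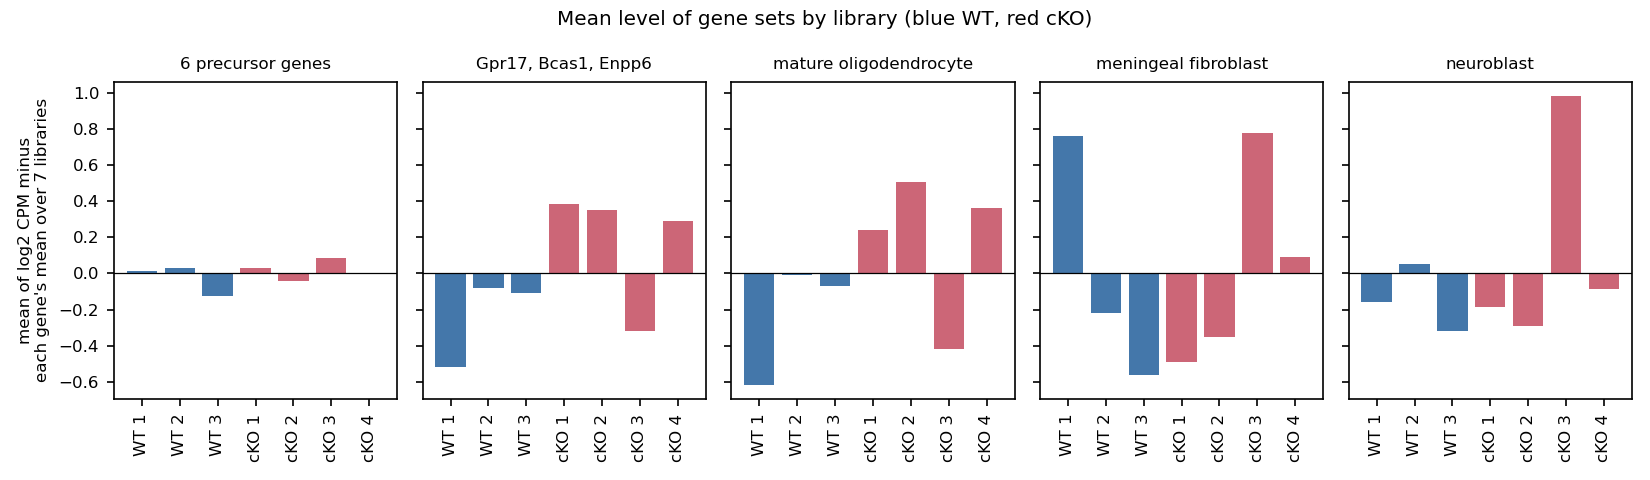
Mean of log2 CPM minus each gene's mean over the 7 libraries (y axis, shared) for 5 gene sets in each library (x axis; WT blue, cKO red). The precursor set stays within -0.12 to 0.08, while the premyelinating and mature sets are lowest in WT replicate 1 and cKO replicate 3.

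Leaving out both libraries high in fibroblast markers gave 2 WT and 3 cKO libraries. The 2 left out were also the lowest of their groups in the premyelinating mean (-0.52 in WT, -0.32 in cKO). Leaving them out narrows the spread of that mean, so the SEs here are not independent of that choice. The log2 fold changes were then 0.36 ± 0.09 (SE) for Gpr17, 0.37 ± 0.09 for Bcas1 and 0.59 ± 0.15 for Enpp6, with edgeR adjusted p of 0.277, 0.257 and 0.306. At an unadjusted p under 0.05 these 3 genes were listed, where 6.24% of all genes tested were. Mature oligodendrocyte genes were positive in 15 of 15 (median 0.40) there, with 14 at that p. Pdgfra had 0.09 and Sox6 0.06 in the same fit. Within the 5 libraries without Xist, Gpr17 had 0.25 ± 0.12, Bcas1 0.12 ± 0.24 and Enpp6 0.34 ± 0.23. None of the 10 genes was at an unadjusted p under 0.05 there, where 4.87% of all genes tested were. With only 10 genes, a count of none does not set them apart from that share. The edgeR adjusted p was at least 0.933 for each. The Xist-positive pair, 1 library of each genotype and so with no test, had 5.63 CPM of Enpp6 in WT and 16.3 CPM in cKO. Gpr17 had 54.5 and 67.7 CPM in this pair, and Bcas1 93.0 and 173 CPM. The WT library of the pair is replicate 1, which was high in fibroblast markers and low in mature oligodendrocyte genes. So the pair does not separate genotype from that difference.

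Levels relative to Pdgfra within a library need no scaling between libraries; like the Cspg4 ratio, they were chosen after the values were seen and are given as a description. Pdgfra is itself also a fibroblast gene. The ratio of Enpp6 to Pdgfra FPKM was 0.128, 0.248 and 0.292 in WT and 0.393, 0.413, 0.223 and 0.339 in cKO. That of Gpr17 was 1.52, 1.69 and 1.65 in WT and 2.01, 2.02, 1.59 and 2.03 in cKO. That of Bcas1 was 3.58, 6.49 and 5.47 in WT and 7.06, 7.84, 3.83 and 6.95 in cKO. For each of the 3 genes, cKO replicates 1, 2 and 4 exceeded all WT libraries and cKO replicate 3 stood inside the span of the WT libraries.

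**Figure D4:**
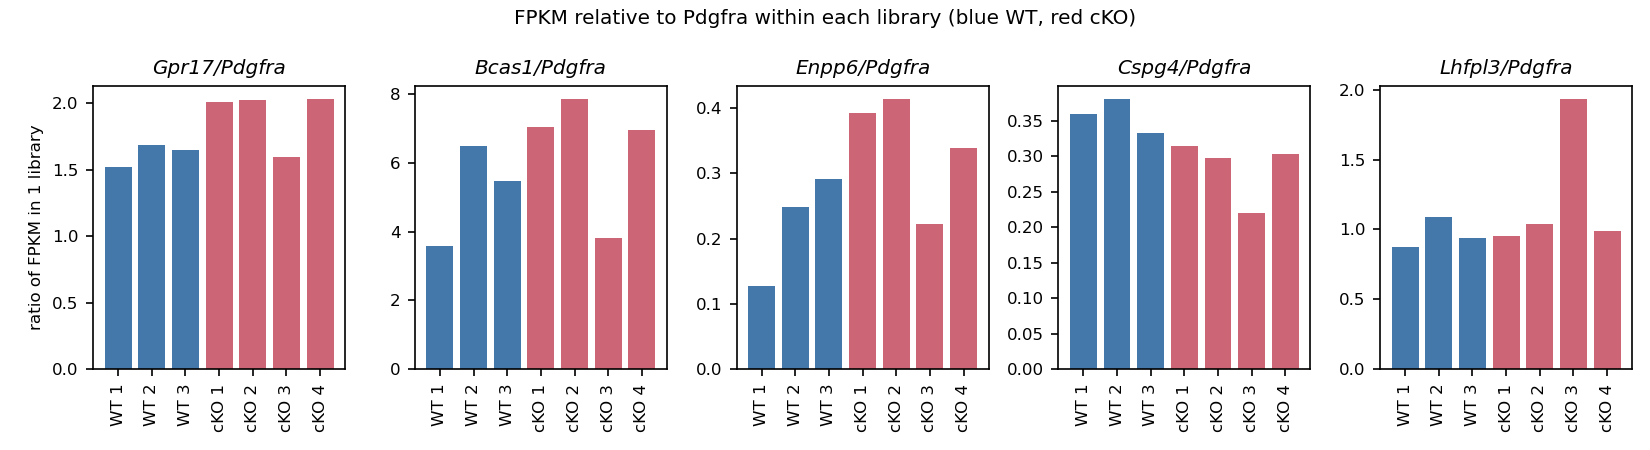
FPKM of 5 genes divided by the FPKM of Pdgfra in the same library (y axis from 0, own scale per panel) for each library (WT blue, cKO red). Cspg4 ratios are lower in every cKO library (0.219 to 0.314) than in any WT library (0.332 to 0.380), and the Lhfpl3 ratio is 1.93 in cKO replicate 3 against 0.878 to 1.09 elsewhere.

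Tnr (ENSMUSG00000015829, chromosome 1, 159523769 to 159931729, forward strand) encodes tenascin-R, a matrix glycoprotein of perineuronal nets. It had 320, 304 and 341 CPM in WT and 311, 316, 312 and 286 CPM in cKO, with cKO replicate 4 lowest and the rest overlapping. For Tnr the log2 fold change was -0.07 ± 0.08 (SE), with a 95% interval from -0.24 to 0.09. Of 11 lectican, tenascin and link protein genes tested, Tnr and Vcan among them, 8 were positive and 3 negative. Their median was 0.10, with 0 called in edgeR. The most abundant of that list per length, Bcan and Ncan, had 0.0034 ± 0.12 and -0.0050 ± 0.09. The largest value was that of Acan, the aggrecan gene, at 0.60 ± 0.20. Acan had 4.10, 4.57 and 4.42 CPM in WT and 6.09, 6.58, 8.73 and 5.14 CPM in cKO.

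Other lists of lineage genes gave the surroundings of these values, with 0 called in any list by edgeR. Of 16 transcription factors of the lineage, Sox6 among them, 13 were positive and 3 negative, with a median of 0.05. Of these, 1 was at an unadjusted p under 0.05 (Zfp536, 0.37 ± 0.10). Without cKO replicate 3 the median was 0.15, with 3 at an unadjusted p under 0.05, where 9.55% of all genes tested were. With the replicate block 8 were positive and 8 negative. Olig1, the most abundant of this list, had 0.03 ± 0.13 (SE), and 82.6 CPM in cKO replicate 3 against 109 to 133 CPM elsewhere. Olig2, singled out after its values were seen, was likewise lowest there, at 17.9 CPM against 25.4 to 33.4 CPM. Id2, an inhibitor of differentiation, had -0.11 ± 0.10.

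Of 20 further precursor genes, 10 were positive and 10 negative, with a median of 0.03. At an unadjusted p under 0.05, 1 was higher in cKO (Ednrb, an endothelin receptor shared with astrocytes, 0.34 ± 0.08) and 2 were lower (Sulf2, -0.25 ± 0.08, and Dscam, -0.19 ± 0.07). Without cKO replicate 3 the split was 6 positive and 14 negative. The most abundant of these, Gpr37l1 and Luzp2, had -0.08 ± 0.10 and 0.12 ± 0.12. Of 16 further premyelinating genes, 12 were positive and 4 negative, with a median of 0.05. The 3 at an unadjusted p under 0.05 were Cnksr3 (0.39 ± 0.17), Elovl7 (0.36 ± 0.16) and Kank1 (0.31 ± 0.11). This count was 1 with library size only, upper-quartile scaling or the replicate block, and 0 without WT replicate 1. Of all genes tested, 3.34% were at that p without WT replicate 1, against 7.14% in the main fit. Fyn, a kinase of early myelination, and Sirt2 had -0.01 ± 0.07 and 0.08 ± 0.12. Bmp4, which is expressed in committed precursors, had 0.02 ± 0.29 at 2.23 CPM in WT and 2.25 CPM in cKO. The median over Gpr17, Bcas1 and Enpp6 was 0.34, and the difference from these further genes was not tested.

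For comparison, 15 of 15 mature oligodendrocyte genes were positive, with a median of 0.39 and 5 at an unadjusted p under 0.05. Without cKO replicate 3 the median was 0.54 with 14 at that p, and without WT replicate 1 it was 0.23 with 1. The share of all genes tested at that p also moved, from 7.14% in the main fit to 9.55% and 3.34% in these fits. Mbp, which encodes myelin basic protein, had 0.33 ± 0.21 (SE). Markers of other cells differed too, and their part in the values above was not tested. Excitatory neuron markers were negative in 7 of 7 (median -0.22, 3 at an unadjusted p under 0.05), microglia markers in 7 of 8 (median -0.16) and endothelial markers in 5 of 7 (median -0.04). Without WT replicate 1 the excitatory markers were still negative in 7 of 7 (median -0.19), with 1 at that p. The microglia markers were then negative in 6 of 8 (median -0.04) and the endothelial markers in 3 of 7 (median 0.05). With the replicate block the excitatory markers were negative in 7 of 7 (median -0.26), with 5 at that p, where 7.52% of all genes tested were. Inhibitory neuron markers were positive in 5 of 8 (median 0.11), and all 4 choroid plexus markers tested were positive (median 0.79), with the level in cKO replicate 4 given above. With the replicate block, to which cKO replicate 4 adds nothing, 2 of those 4 were positive and 2 negative (median 0.09). Among ligands of the precursor receptors, Pdgfa had 0.10 ± 0.11, Pdgfb had -0.10 ± 0.10 and Ptn, the PTPRZ1 ligand pleiotrophin, had 0.13 ± 0.11. Mdk, the related ligand midkine and the lowest value of the PTPRZ1 ligand list, had -0.40 ± 0.25, with an edgeR adjusted p of 0.752. The 7 PDGF genes, Pdgfra among them, were 3 positive and 4 negative. The 8 PTPRZ1 ligand genes, Tnr among them, were 3 positive and 5 negative. Of 10 cell division genes tested, 4 were positive and 6 negative, with a median of -0.02, or 6 positive and 4 negative with the replicate block. Ccnd2 and Pcna, the most abundant, had 0.19 ± 0.09 and -0.01 ± 0.11. Mki67, a marker of cycling cells singled out for its role, had 3.79, 6.30 and 3.43 CPM in WT and 5.55, 5.12, 5.34 and 6.58 CPM in cKO.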

How the data were processed

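The authors deposited raw gene counts and FPKM for 54532 genes in 7 libraries. The mm10 build, featureCounts 1.5.0-p3 and DESeq2 1.20.0 are named, without their roles, by the submitters' processing notes. The aligner, annotation release and strand setting were not given in the sources used here. The FPKM values the authors deposited were used to compare levels between genes and in alternatives, and the deposited counts for all tests. There were 0 rows without a gene name.

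Counts were tested with edgeR 4.0.16 in R 4.3.3 (TMM factors, default filterByExpr, 16308 genes, quasi-likelihood F test, genotype as factor). P-values were adjusted over all genes by Benjamini-Hochberg, with an adjusted p under 0.05 called. The SE is the log2 fold change over the root of F. Exact permutation tests used SciPy 1.17.1. The test was checked on simulated counts. DESeq2 1.42.0 and limma 3.58.1 were alternatives, with other scalings, filters, FPKM pseudocounts (1 and 0.1), the replicate block and libraries left out. Pairs of libraries differed by 4.19 to 23.9 times counting noise (chi-square per degree of freedom), so each counted as 1 replicate. No label says that libraries are separate animals, so p-values here reflect library-to-library spread, which may be technical.

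Same-numbered WT and cKO libraries had correlated deviations from their group means (0.110, 0.128 and 0.122 for replicates 1 to 3), and the numbers come from the titles. Each is above 0.1, so a fit with the replicate number as a block was read as paired, beside the main fit without it. Number 4 occurs only in cKO, so cKO replicate 4 adds nothing to the genotype difference in the block fit. Differently numbered libraries correlated as highly: WT replicate 2 with cKO replicate 4 (0.210) and WT replicate 1 with cKO replicate 3 (0.129). The members and lists were chosen with earlier results of these data known. The rule for naming printed all 10 members and, for each other list, called genes or else the 2 highest in FPKM; 1 gene it selects is not reported here. Other named genes, extremes aside, were picked after their values were seen.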

Additional observations from a re-analysis of the deposited data

Results flagged for a closer look

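Of the 10 genes, 3 had a cKO library whose gap to the next was above the Dixon limit for 4 values, where chance alone gives about 1 in 20 groups. Lhfpl3 was highest in cKO replicate 3, at 39.3 CPM against 19.9 to 20.2 CPM in the other cKO libraries. Bcas1 was lowest in cKO replicate 3, at 91.6 CPM against 167 to 178 CPM. Tnr was lowest in cKO replicate 4, at 286 CPM against 311 to 316 CPM, the library with the highest choroid plexus markers. Groups of 3 WT libraries were not examined this way.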

How the results depend on the processing

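Over 20 alternatives, 189 of 200 log2 fold changes of the 10 genes kept their direction and side of the threshold. The count of called genes over the whole table, 0 in edgeR, was 198 with no filter on low counts, 12 in DESeq2, 3 on log2(FPKM + 1) with no filter and 0 in limma-voom. It was 2 with the replicate block, 1 without WT replicate 1 and cKO replicate 3 together, and 0 to 3 when any 1 library was left out. Of the 10 genes, 1 was called with no filter (Enpp6, log2 fold change 0.66) and 0 in every other alternative. The log2 fold change of Enpp6 was nearly the same in the main fit (0.67), but its SE was 0.24 there and 0.16 with no filter. Over the 10 genes the SE ran from 0.10 to 0.16 in the fit with no filter and from 0.08 to 0.24 in the main fit. So this call came with a smaller SE and not with a larger difference. The cause was not tested. DESeq2 gave no adjusted p for some genes, Enpp6, Cspg4 and Lhfpl3 among them, which were counted as not called. The replicate block changed no call among the 10 genes and called 0 genes of any list. Signs turned for 3 genes near 0, each within its SE. Pdgfra had -0.0066 with upper-quartile scaling, and -0.031 to 0.086 when any 1 library was left out. Sox6 had -0.0058 with upper-quartile scaling, -0.018 with the replicate block, and -0.023 to 0.032 when any 1 library was left out. Vcan had -0.016 without WT replicate 1 and cKO replicate 1 together, an alternative chosen after seeing the data. Leaving out any 1 library gave ranges of -0.41 to -0.23 for Cspg4, 0.02 to 0.20 for Vcan, 0.10 to 0.19 for Ptprz1, 0.05 to 0.45 for Lhfpl3, 0.21 to 0.33 for Gpr17, 0.19 to 0.52 for Bcas1, 0.43 to 0.87 for Enpp6 and -0.12 to -0.03 for Tnr. Enpp6 had 0.41 on log2(FPKM + 1). Enpp6 had the fewest counts of the 10 genes, 92 to 271 per library. The alternatives for the other lists were chosen after seeing the data.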
